A study of Mus musculus with 16 samples.

Results

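Cxcl9, Cxcl10 and Cxcl11 are the genes of the ligands of the chemokine receptor CXCR3, the last of them a transcribed pseudogene in the C57BL/6J annotation, and were followed across all 6 groups of a mouse hepatitis experiment. They were taken as the spots, controls left out, whose gene name on the array is Cxcl9, Cxcl10 or Cxcl11: 3 genes of 21337, with 1 probe and 1 spot each among 41174 probes and 43379 spots. All RNA came from female C57Bl/6 mice that were given 300 µg of concanavalin A, which stimulates T cells and produces an acute T-cell-driven liver injury. The treated mice also received 100000 stem cells by the tail vein, cultured from inguinal fat of C57Bl/6 mice.

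The groups were hepatic inflammatory cells 5 h after concanavalin A with stem cells given at 3 h (samples 987 and 989), the same cells at 5 h with concanavalin A alone (samples 983 and 985), livers at 5 h with stem cells given at 3 h (mice 1, 2 and 3), livers at 5 h with concanavalin A alone (mice 4, 5 and 6), livers at 2 h with stem cells given immediately (mice 8, 9 and 10) and livers at 2 h with concanavalin A alone (mice 11, 12 and 13). No mouse without concanavalin A is analysed here, so no resting level of the chemokines is given. The labels do not say whether the cell samples came from separate mice, so the p-values may rest on technical spread only. One label field of samples 983 and 985 mentions stem cells while the fields on treatment do not, and the samples were used as untreated.

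CXCL9, CXCL10 and CXCL11 are secreted proteins that bind CXCR3 on activated T cells and NK cells and draw those cells into inflamed tissue. Interferon gamma from T cells and NK cells induces all 3 genes, in part through IRF1, and CXCL10 is also induced by type I interferon, TNF and NF-kB. In liver, hepatocytes, sinusoidal endothelial cells and macrophages are known sources. The genes lie next to each other on mouse chromosome 5, with Art3 as the sole other gene between Cxcl9 and Cxcl10 in the RefSeq table used here. The RefSeq table, made on C57BL/6J, lists Cxcl9 and Cxcl10 as protein coding and Cxcl11 as a transcribed pseudogene, so the Cxcl11 probe reports a transcript and not a protein.

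The probe of Cxcl9 is at chr5:93398365-93398424 on build mm8, that of Cxcl10 at chr5:93421955-93422014 and that of Cxcl11 at chr5:93436297-93436448, all on the minus strand. The Cxcl11 probe spans 152 bases of genome, against 60 bases for the others. Because the 3 genes are neighbours that follow one inducer, the stretches upstream of their starts are shown. RefSeq windows on build GRCm38.p6 were at hand for Cxcl9 (chr5:92328080-92328329, minus strand) and Cxcl10 (chr5:92348890-92349139, minus strand), not for Cxcl11. Each is the 250 bases before the annotated start, 5′ to 3′, with motif matches in capitals.
Cxcl9: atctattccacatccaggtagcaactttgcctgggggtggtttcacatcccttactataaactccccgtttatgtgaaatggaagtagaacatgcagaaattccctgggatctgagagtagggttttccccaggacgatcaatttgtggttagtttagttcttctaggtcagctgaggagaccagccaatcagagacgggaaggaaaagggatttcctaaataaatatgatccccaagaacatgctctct
Cxcl10: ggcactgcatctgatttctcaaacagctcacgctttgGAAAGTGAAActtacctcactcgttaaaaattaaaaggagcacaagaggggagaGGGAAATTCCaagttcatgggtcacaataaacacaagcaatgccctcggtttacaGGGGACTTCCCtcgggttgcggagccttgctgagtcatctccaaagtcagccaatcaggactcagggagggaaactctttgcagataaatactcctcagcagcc
Both strands were searched for the core of the interferon-stimulated response element (GAAA, any 2 bases, GAAA), for the interferon gamma-activated site called GAS (TTCNNNGAA) and for the NF-kB site. The Cxcl10 window held the first motif 213 to 204 bases before the start and the NF-kB motif at 159 to 150 bases and again in 2 overlapping frames from 104 to 94 bases. It held no GAS match, and the Cxcl9 window held no match of these letters to any of the 3. Among 32851 windows of this length, 2.98% held the response element core, 7.02% the GAS motif and 7.25% the NF-kB motif. A match is a description of letters, not of binding.

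Each level is a log2 value from which the 75th percentile of its array was subtracted, so a spot at 0 was as bright as that percentile. A level can be compared between samples for 1 probe, not between probes. Each member was well above background on all 16 arrays, 0 of its spots were saturated and 0 were marked as outliers. On 12 liver arrays all 9 hepatocyte markers found on the array lay above background, with summed signals of 3225 to 5371 times the percentile. In the cells 8 to 9 of them lay above background too, with sums of 85.1 to 328. T cell markers summed to 45.3 to 76.6 in the cells and to 1.71 to 2.27 in the livers, where 6 to 8 of 9 lay above background. By these sums the tissue labels held. In bulk RNA, fewer cells of a type and less RNA per cell cannot be told apart.

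Cxcl10, which among the ligands answers the widest range of inducers, was high in 10 of 12 livers. In inflammatory cells it stood at 3.32 and 4.63 with stem cells and at 6.58 and 6.83 with concanavalin A alone. At 5 h it stood at 9.96, 9.61 and 9.92 in livers with stem cells and at 9.43, 9.57 and 9.15 in livers without. At 2 h it stood at 8.69, 9.07 and 3.75 in livers with immediate stem cells (mice 8, 9 and 10) and at 9.52, 9.65 and 2.22 in livers without (mice 11, 12 and 13). These 10 livers thus lay between 8.69 and 9.96, while mouse 10 and mouse 13 lay far below. The scanner's low-gain reading was used for Cxcl10 on every liver array except those of mice 10 and 13.

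Cxcl9, the member most dependent on interferon gamma, showed the same 2 livers at the bottom. In inflammatory cells it stood at 1.53 and 2.23 with stem cells and at 5.36 and 3.90 without. Livers at 5 h stood at 8.93, 8.67 and 9.01 with stem cells and at 9.07, 8.90 and 8.51 without. Livers at 2 h stood at 5.87, 6.48 and 1.97 with immediate stem cells and at 8.18, 8.00 and 2.10 without. Mice 8 and 9 lay below mice 11 and 12, and mice 10 and 13 lay below all 10 other livers.

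Cxcl11 also separated mice 10 and 13 from the other livers. In inflammatory cells it stood at -2.98 and -2.64 with stem cells, on processed signals of 27.3 and 61.2, and at 1.99 and 0.76 without, on 1271 and 719. Livers at 5 h stood at 4.49, 4.53 and 4.70 with stem cells and at 3.99, 4.31 and 3.76 without. Livers at 2 h stood at 2.22, 2.69 and -1.87 with immediate stem cells and at 4.75, 4.30 and -2.22 without. In mouse 13 the gene was 126 times dimmer than in mouse 11.

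**Figure D1:**
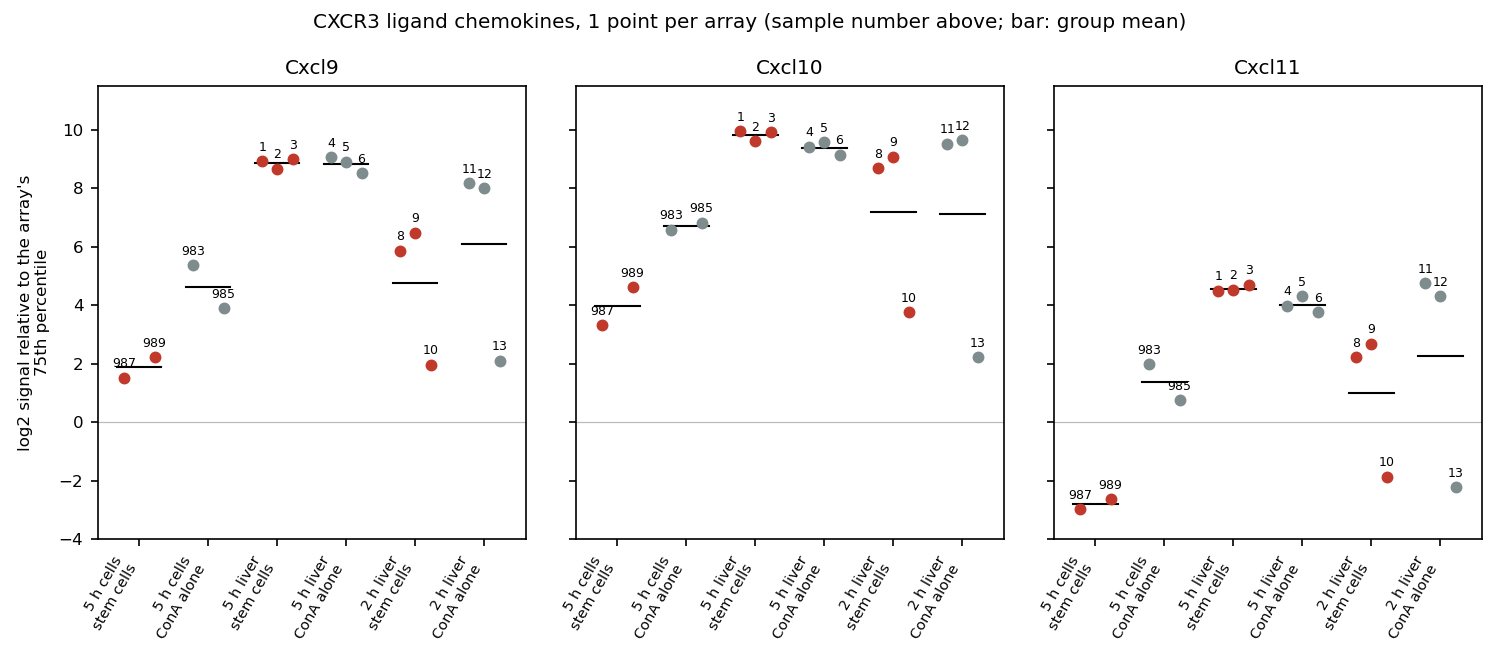
Level of each chemokine on each of the 16 arrays (log2, array 75th percentile at 0, sample number above each point, bar at the group mean), with stem-cell-treated groups in red and concanavalin A alone in grey. Mice 10 and 13 lie far below the other livers for all 3 genes, and the stem-cell-treated inflammatory cells lie below the untreated ones.

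Ordered by group mean, Cxcl9 averaged 8.87 ± 0.18 in 5 h livers with stem cells, 8.83 ± 0.29 in 5 h livers without, 6.10 ± 3.46 in 2 h livers without, 4.78 ± 2.45 in 2 h livers with stem cells, 4.63 ± 1.03 in cells without and 1.88 ± 0.50 in cells with stem cells (SD, n = 3 per liver group and 2 per cell group). In that order the 2 groups of 5 h livers overlapped, as did the 2 groups of 2 h livers, and the 2 h livers with stem cells overlapped the cells without. The other neighbours did not overlap. Cxcl10 averaged 9.83 ± 0.19 and 9.38 ± 0.21 in 5 h livers with and without stem cells, 7.17 ± 2.97 and 7.13 ± 4.25 in 2 h livers with and without, and 6.71 ± 0.17 in cells without and 3.97 ± 0.92 in cells with stem cells. Its 2 groups of 2 h livers overlapped each other, and the 2 h livers without stem cells overlapped the cells without. Cxcl11 averaged 4.57 ± 0.11 and 4.02 ± 0.27 in 5 h livers with and without stem cells, 2.28 ± 3.90 in 2 h livers without, 1.37 ± 0.87 in cells without, 1.01 ± 2.51 in 2 h livers with stem cells and -2.81 ± 0.24 in cells with stem cells. Only the 2 groups of 5 h livers, and the 2 h livers with stem cells against the cells with stem cells, were neighbours without overlap.

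The 2 h livers varied far more than the 5 h livers in all 3 members. In 2 h livers with stem cells the SD of Cxcl10 was 2.97, against a median of 0.24 over 14649 genes, and 6 genes had a larger SD. In 2 h livers without stem cells its SD was 4.25, against a median of 0.29 over 14650 genes, and again 6 genes had a larger SD. For Cxcl9 42 and 21 genes had a larger SD in these groups, and for Cxcl11 33 and 10. In the 5 h groups the members' SDs ran from 0.11 to 0.29, and 36.5% to 79.9% of genes had a larger SD.

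Mice 10 and 13 were also low in genes of interferon gamma and its signalling. Irf1, a transcription factor induced by interferon gamma, stood at 7.61, 7.84 and 4.22 in mice 8, 9 and 10, and at 8.02, 8.00 and 3.41 in mice 11, 12 and 13. Socs1, a feedback inhibitor of interferon signalling, stood at 2.60, 3.14 and -1.89 in mice 8, 9 and 10 and at 5.25, 5.02 and -2.08 in mice 11, 12 and 13. Ifng, the gene of interferon gamma, stood at 1.79, 2.20 and 0.39 and at 3.34, 2.09 and -0.50 in the same mice, so mice 10 and 13 were lowest in their groups for all 3 genes. T cell markers summed to 1.73 to 2.27 in 2 h livers with stem cells and to 1.85 to 2.02 in 2 h livers without, with 7 of 9 markers above background in the first group and 6 to 8 in the second. Neutrophil markers (8 on the array) summed to 100.6, 89.1 and 35.6 in mice 8, 9 and 10 and to 71.7, 83.0 and 14.9 in mice 11, 12 and 13. Macrophage and monocyte markers (10 on the array) summed to 118, 133 and 148 in mice 8, 9 and 10 and to 118, 115 and 178 in mice 11, 12 and 13. Of the 2 h livers, mice 10 and 13 had the lowest sums of neutrophil, T cell and hepatocyte markers and the highest sums of macrophage, endothelial (60.8 and 57.8) and B cell markers (5.80 and 5.70). A sum leans on its brightest markers, and the marker medians kept this order for neutrophil and macrophage markers only. In mouse 10 the T cell median (log2, -2.43) was the highest of the 2 h livers. Its endothelial (1.59) and B cell (-1.64) medians were the lowest of its group. The part of these differences in the chemokine levels was not tested. Mice 10 and 13 lay on different slides.

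The first comparison asked whether stem cells given together with concanavalin A alter the chemokines at 2 h. The log2 difference, stem cells minus none, was -1.32 ± 1.53 for Cxcl9 (SE; 95% interval -4.72 to 2.08; limma, adjusted p = 0.878), 0.04 ± 1.87 for Cxcl10 (-4.12 to 4.20; 0.998) and -1.27 ± 1.68 for Cxcl11 (-4.99 to 2.45; 0.888). The groups overlapped for every member and 0 of 3 passed the threshold of 0.05 for the adjusted p, where 0.0273% of 14654 genes passed. With intervals this wide, these livers do not show that the levels were alike.

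Each slide held 1 liver of each group, and the 2 h differences within a slide went both ways. For Cxcl10 they were -0.96 on slide 1 (mouse 8 minus mouse 12), -5.77 on slide 2 (mouse 10 minus mouse 11) and 6.85 on slide 3 (mouse 9 minus mouse 13). For Cxcl9 they were -2.13, -6.21 and 4.38, and for Cxcl11 -2.08, -6.63 and 4.91 on slides 1, 2 and 3. The sign on slides 2 and 3 followed mice 10 and 13. All 3 livers with stem cells were on array position 2 of their slide and all 3 without on position 1, so position and treatment cannot be told apart at 2 h.

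**Figure D2:**
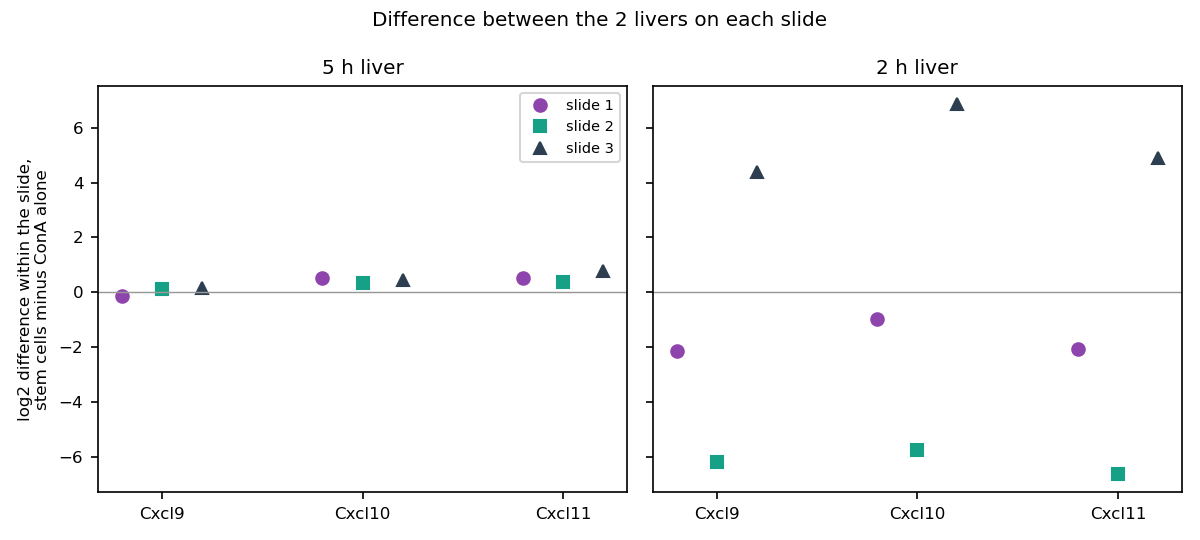
Log2 difference between the liver with stem cells and the liver without on each slide, for 5 h and 2 h. The 5 h differences lie between -0.14 and 0.76, while the 2 h differences lie between -6.63 and 6.85.

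Without mice 10 and 13, 2 livers remained per 2 h group and the spread came from 10 livers. The difference was then -1.91 ± 0.25 for Cxcl9 (adjusted p = 0.00703) and -2.07 ± 0.24 for Cxcl11 (adjusted p = 0.00458), in limma fits of 14494 genes of which 2.52% passed as lower. For Cxcl10 it was -0.71 ± 0.20, turning the sign of the fit of all livers, and did not pass (adjusted p = 0.121). Mice 10 and 13 were known from earlier results to stand apart, and leaving them out removes the lowest sample of each group, so the result describes mice 8, 9, 11 and 12. With normexp background correction the levels of mouse 8 were 4.26 for Cxcl9, 6.83 for Cxcl10 and 0.93 for Cxcl11, and the fitted Cxcl10 difference turned to -0.48. Erythroid markers (4 on the array) summed to 203 to 299 in 2 h livers with stem cells and to 456 to 588 in those without, and their part in the result was not tested.

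At 5 h, 2 h after stem cells were given to mice with established hepatitis, Cxcl10 and Cxcl11 were slightly higher with stem cells in every liver. The log2 difference was 0.45 for Cxcl10 and 0.55 for Cxcl11, a 1.36-fold and a 1.46-fold higher signal, and 0.04 for Cxcl9. The groups did not overlap for 2 of the 3 members, where 12.7% of 14654 genes lay higher without overlap. In the fit of all 12 livers, whose spread holds the 2 h livers, the SEs were 1.87, 1.68 and 1.53 and the adjusted p 0.943, 0.918 and 0.995, so 0 of 3 passed, where 0.0341% of genes passed.

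Fitted on the 6 livers of the 5 h groups alone, the difference was 0.45 ± 0.17 for Cxcl10 (95% interval 0.04 to 0.85; limma, adjusted p = 0.261), 0.55 ± 0.18 for Cxcl11 (0.14 to 0.96; 0.207) and 0.04 ± 0.19 for Cxcl9 (-0.40 to 0.48; 0.93). None of these passed either. Within the slides the difference of Cxcl10 was 0.53, 0.35 and 0.46 and that of Cxcl11 0.50, 0.39 and 0.76. As neither gene overlapped between the groups, a higher level with stem cells on 3 of 3 slides was fixed in advance. The Cxcl9 difference was -0.14, 0.10 and 0.16. Endothelial markers (8 on the array) summed to 32.9 to 45.1 in 5 h livers with stem cells and to 21.0 to 29.4 in those without, and neutrophil markers to 187 to 240 and 142 to 203. Their part in the result was not tested.

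In hepatic inflammatory cells at 5 h, all 3 members lay lower in both stem-cell-treated samples. The log2 difference was -2.75 ± 0.57 for Cxcl9 (95% interval -4.14 to -1.37), -2.73 ± 0.50 for Cxcl10 (-3.96 to -1.50) and -4.18 ± 0.50 for Cxcl11 (-5.38 to -2.98), which is 6.73-fold, 6.64-fold and 18.2-fold lower. The groups overlapped for 0 of 3 members, where 24.9% of 14260 genes lay lower without overlap, so the separation of 2 samples from 2 is common in these data. The adjusted p in the limma fit of the 4 samples were 0.151, 0.146 and 0.0814, so 0 of 3 passed, where 0.014% of genes passed. In rank of p the members stood 253rd, 138th and 22nd among 14260 genes.

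The call in the cells depended on background correction. With normexp, which lifts dim spots, the differences were -2.89 ± 0.41, -3.0 ± 0.38 and -2.47 ± 0.40 for Cxcl9, Cxcl10 and Cxcl11 and all passed in limma (adjusted p = 9.28e-05, 2.49e-05 and 0.000438), where 5.04% of genes passed as lower. With no filter on dim probes Cxcl11 passed (-4.18, adjusted p = 0.036), where 0.089% of genes passed as lower. Without sample 985 all 3 passed as well (adjusted p = 0.014, 0.0324 and 0.0105), where 6.96% of genes passed as lower. Neutrophil markers summed to 629 to 664 in treated and 151 to 226 in untreated cells, and macrophage and monocyte markers to 487 to 547 and 189 to 480. Dendritic cell markers (6 on the array) summed to 17.4 to 19.8 in treated and 7.46 to 11.6 in untreated cells, and endothelial markers to 11.6 to 11.9 and 5.21 to 9.21. These 4 sums lay higher without overlap in the treated cells, a separation of 2 samples from 2. The log2 marker medians stayed apart for macrophage, dendritic cell and endothelial markers. Those of neutrophil markers overlapped, at 3.77 and 3.04 in treated and 3.29 and 2.90 in untreated cells. T cell markers summed to 47.4 to 76.6 in treated and 45.3 to 67.7 in untreated cells, with 9 of 9 above background in all 4 samples. The part of cell makeup in the chemokine difference was not tested.

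**Figure D3:**
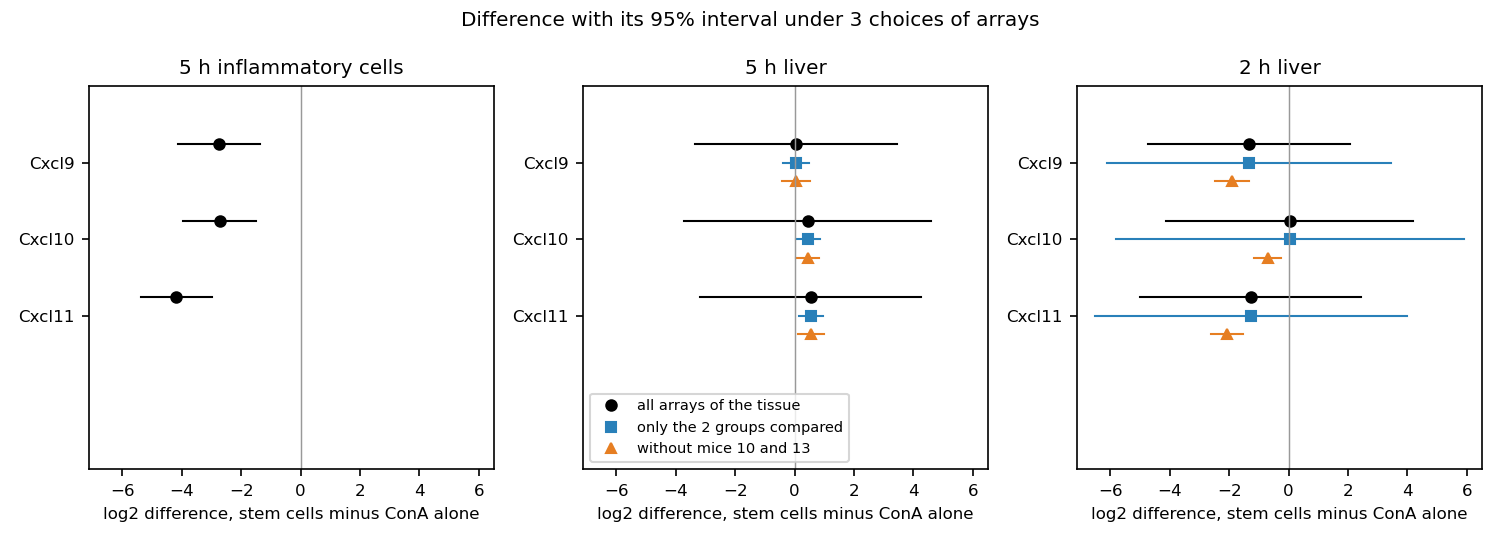
Log2 difference, stem cells minus concanavalin A alone, with its 95% interval, in 5 h inflammatory cells, 5 h livers and 2 h livers, from the fit of all arrays of the tissue (circles), of only the groups compared (squares) and without mice 10 and 13 (triangles). The intervals of the 5 h liver narrow once the 2 h livers leave the fit, and those of the 2 h liver narrow once mice 10 and 13 leave.

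The difference of the stem cell effect between inflammatory cells and liver at 5 h was -2.79 ± 2.23 for Cxcl9, -3.18 ± 2.70 for Cxcl10 and -4.73 ± 2.42 for Cxcl11 in the fit of all 16 arrays (limma, adjusted p = 0.562, 0.585 and 0.339), so 0 of 3 passed, where 2.25% of 16321 genes passed. Fitted on the 10 arrays at 5 h alone it passed for Cxcl10 (-3.18 ± 0.50, adjusted p = 0.0298) and Cxcl11 (-4.73 ± 0.49, adjusted p = 0.00778) and not for Cxcl9 (-2.79 ± 0.58, adjusted p = 0.0562), where 0.98% of 15619 genes passed as lower. The difference of the effect between 5 h and 2 h livers was 1.36 ± 2.17, 0.41 ± 2.65 and 1.82 ± 2.37 for Cxcl9, Cxcl10 and Cxcl11 (adjusted p of limma all 1.00), and 0.0136% of genes passed. Without mice 10 and 13 it passed for Cxcl9 (1.95 ± 0.33, adjusted p = 0.0495) and Cxcl11 (2.63 ± 0.31, adjusted p = 0.0176), where 0.442% passed as higher, and not for Cxcl10 (1.15 ± 0.26, adjusted p = 0.113). As those mice were the lowest of the 2 h livers for these genes, the calls describe the livers kept.

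Between the times, livers with stem cells were higher at 5 h for every member. The log2 difference, 5 h minus 2 h, was 4.09 ± 1.53 for Cxcl9, 2.66 ± 1.87 for Cxcl10 and 3.56 ± 1.68 for Cxcl11 (limma, adjusted p = 0.0903, 0.363 and 0.168), so 0 of 3 passed, where 8.78% of 14654 genes passed as higher. The groups overlapped for 0 of 3, where 18.5% of genes lay higher without overlap. Without mouse 10, and mouse 13 among the other livers, the differences were 2.69 ± 0.23, 0.95 ± 0.19 and 2.12 ± 0.22 and all passed (adjusted p = 0.000191, 0.00861 and 0.000428), where 10.5% of genes passed as higher. Leaving these mice out removes the lowest 2 h livers for these genes and narrows the SE, so the calls describe the livers kept. Cxcl9 also passed with array weights (3.03, limma, adjusted p = 0.0215) and in the fit of these 2 groups (4.09, 0.045), where 13.9% and 10.1% of genes passed as higher, and missed the threshold once the slide was added as a block (adjusted p = 0.0593). Without mouse 13 alone, Cxcl9 (adjusted p = 0.0114) and Cxcl11 (0.0233) passed in limma, where 12.1% did. The 2 times also differ in when stem cells were given, so time and schedule cannot be told apart here.

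With concanavalin A alone the difference was 2.73 ± 1.53 for Cxcl9, 2.25 ± 1.87 for Cxcl10 and 1.74 ± 1.68 for Cxcl11 (limma, adjusted p = 0.249, 0.440 and 0.508), so 0 of 3 passed, where 6.46% of genes passed as higher. Only Cxcl9 did not overlap, where 15.2% of genes lay higher without overlap. Without mice 10 and 13 the difference was 0.74 ± 0.23 for Cxcl9, -0.21 ± 0.19 for Cxcl10 and -0.51 ± 0.22 for Cxcl11 (adjusted p = 0.0691, 0.504 and 0.165). Leaving out mouse 13 thus turned the sign of the Cxcl10 and Cxcl11 differences.

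Set against liver, inflammatory cells held less of every member per unit of array signal. With stem cells the log2 difference, cells minus liver, was -6.99 ± 1.58 for Cxcl9, -5.85 ± 1.91 for Cxcl10 and -7.38 ± 1.71 for Cxcl11, and 3 of 3 fell in limma (adjusted p = 0.00173, 0.0167 and 0.00208), where 35.5% of 16321 genes passed as lower. With concanavalin A alone it was -4.20 ± 1.58 for Cxcl9, which fell (adjusted p = 0.0345), and -2.68 ± 1.91 for Cxcl10 and -2.65 ± 1.71 for Cxcl11, which did not pass (adjusted p = 0.245 and 0.200), where 31.7% passed as lower. Fitted on the 5 arrays of these groups alone, Cxcl10 (limma, adjusted p = 0.000178) and Cxcl11 (adjusted p = 0.0016) passed too, where 31.5% of genes passed as lower. Without mouse 13, a 2 h liver that enters the shared spread, Cxcl11 passed as well (limma, adjusted p = 0.0352), where 32.6% did. The Cxcl9 call with concanavalin A alone was lost with quantile normalization (-3.46, limma, adjusted p = 0.0678), with array weights (-4.11, 0.0622) and without any 1 of the 5 samples compared (adjusted p of 0.0564 to 0.18). The Cxcl10 call with stem cells was lost without sample 987 (-5.20, limma, adjusted p = 0.0987). All 4 cell arrays shared 1 slide that held no liver, so tissue and slide cannot be told apart.

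Differences between members within an array were compared for each pair of members. Cxcl9 minus Cxcl10 was -1.03, -0.94 and -0.91 in 5 h livers with stem cells and -0.36, -0.66 and -0.64 in those without. At 2 h it was -2.82, -2.59 and -1.78 with immediate stem cells and -1.34, -1.65 and -0.12 without, mice 10 and 13 being highest in their groups. At both times every liver with stem cells lay below every liver without, and mean differences were -0.41 and -1.36. With quantile normalization the 5 h difference shrank to -0.23, with ranges of -0.82 to -0.61 with stem cells and -0.59 to -0.30 without. In inflammatory cells the difference was -1.80 and -2.40 with stem cells and -1.22 and -2.93 without, which overlapped. A difference between 2 probes shows unequal change, not which of them changed.

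Cxcl11 minus Cxcl10 was -5.47, -5.08 and -5.22 in 5 h livers with stem cells and -5.44, -5.26 and -5.39 in those without, which overlapped. At 2 h it was -6.48, -6.38 and -5.63 with immediate stem cells and -4.77, -5.35 and -4.44 without, with no overlap. In inflammatory cells it was -6.30 and -7.27 with stem cells and -4.59 and -6.07 without, and with normexp the mean difference of -1.45 turned to 0.53. Cxcl9 minus Cxcl11 was 4.44, 4.14 and 4.31 in 5 h livers with stem cells and 5.08, 4.59 and 4.75 in those without, with no overlap. At 2 h it was 3.65, 3.79 and 3.84 with immediate stem cells and 3.43, 3.70 and 4.32 without, which overlapped. In inflammatory cells it was 4.50 and 4.87 with stem cells and 3.37 and 3.14 without, and with normexp the order turned, at 3.00 and 2.78 with and 3.45 and 3.18 without. At 2 h, then, in these values both pairs with Cxcl10 were apart between the groups and the pair without it was not. On each array the pair without Cxcl10 follows from the pairs with it, so it is not a separate result. With normexp the 2 h groups of Cxcl11 minus Cxcl10 overlapped, from -6.42 to -4.61 with stem cells and from -5.35 to -3.53 without. Those of Cxcl9 minus Cxcl10 stayed barely apart, with a highest value of -1.47 with stem cells and a lowest of -1.45 without. The within-array measure was picked after the levels were seen and has no test. No share of other probe pairs that separate the groups in this way is given, so the lack of overlap does not single out these genes.

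**Figure D4:**
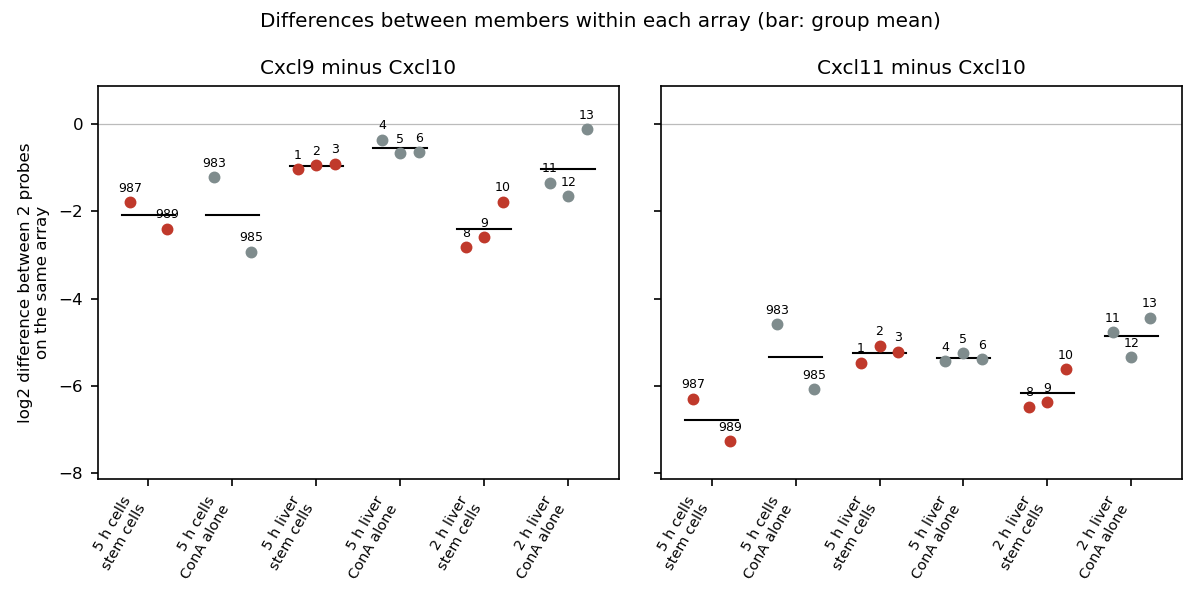
Log2 difference between 2 member probes on the same array, Cxcl9 minus Cxcl10 and Cxcl11 minus Cxcl10, by group, with the sample number at each point and a bar at the group mean. Cxcl9 minus Cxcl10 lies lower with stem cells than without in 5 h and in 2 h livers, and overlaps in the cells. The separation has no test.

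Of 27 genes that induce, transmit, curb or receive the CXCR3 ligands, 25 were tested in liver and 26 in the cells and across tissues. Stem cells gave 0 calls in either direction in 5 h cells, 5 h livers and 2 h livers, where 0.014%, 0.0341% and 0.0273% of all genes passed. The list medians were -0.37, -0.013 and -0.23 beside 0.09, 0.08 and 0.08 over all genes. The list was drawn up with earlier results of these data known.

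Among the inducers, Ifng stood at 4.05 and 4.37 in cells with stem cells and at 6.96 and 7.37 in cells without. The difference was -2.95 ± 0.37 and did not pass in the cells alone (limma, adjusted p = 0.0909). The groups did not overlap, where 24.9% of 14260 genes lay lower without overlap. In livers Ifng stood at 2.61, 2.86 and 2.11 with stem cells at 5 h and at 1.62, 2.04 and 2.32 without, which overlapped. Tnf, a cytokine of T cells and macrophages, stood at 1.09 and 1.35 in cells with stem cells and at 2.47 and 3.69 without. At 5 h Tnf in liver stood at -0.18, -0.21 and -0.50 with stem cells and at 0.46, 1.07 and 0.96 without (difference -1.12 ± 0.90, adjusted p = 0.626). Tnf lay lower in the 5 h livers in which Cxcl10 and Cxcl11 lay higher, and none of these differences passed. A link between them was not tested.

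In signalling, Irf1 stood at 7.01, 6.81 and 6.83 in 5 h livers with stem cells and at 7.78, 7.51 and 7.25 without (difference -0.63 ± 1.21, limma, adjusted p = 0.86). In the cells Irf1 differed by -0.51 ± 0.34 (adjusted p = 0.466). Socs1 stood at 1.93 and 3.63 in cells with stem cells and at 5.51 and 5.32 without (difference -2.64 ± 0.59, adjusted p = 0.158), and at 5.42 to 5.84 in all 5 h livers. Without mice 10 and 13, 5 of the genes fell at 2 h with stem cells: Irf8, Jak2, Nfkb1, Rela and Socs1 (-2.27 ± 0.21, limma, adjusted p = 0.00193), where 2.52% of all genes passed as lower and the livers left out were the lowest of their groups for the chemokines.

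Among receptors and modifiers, Cxcr3 itself stood at -3.63 to -1.70 over the 12 livers. In the cells it stood at 1.95 and 2.54 with stem cells and 1.75 and 2.46 without. Ackr3, a scavenging receptor that binds CXCL11, stood at -2.80 and -2.49 in cells with stem cells and at -4.76 and -3.73 without, where 1 sample was not above background (difference 1.60 ± 0.46, adjusted p = 0.189). Dpp4, whose protease trims these chemokines, stood at 1.20 and 1.39 in cells with stem cells and at -0.48 and 0.62 without (1.23 ± 0.46, adjusted p = 0.253).

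**Figure D5:**
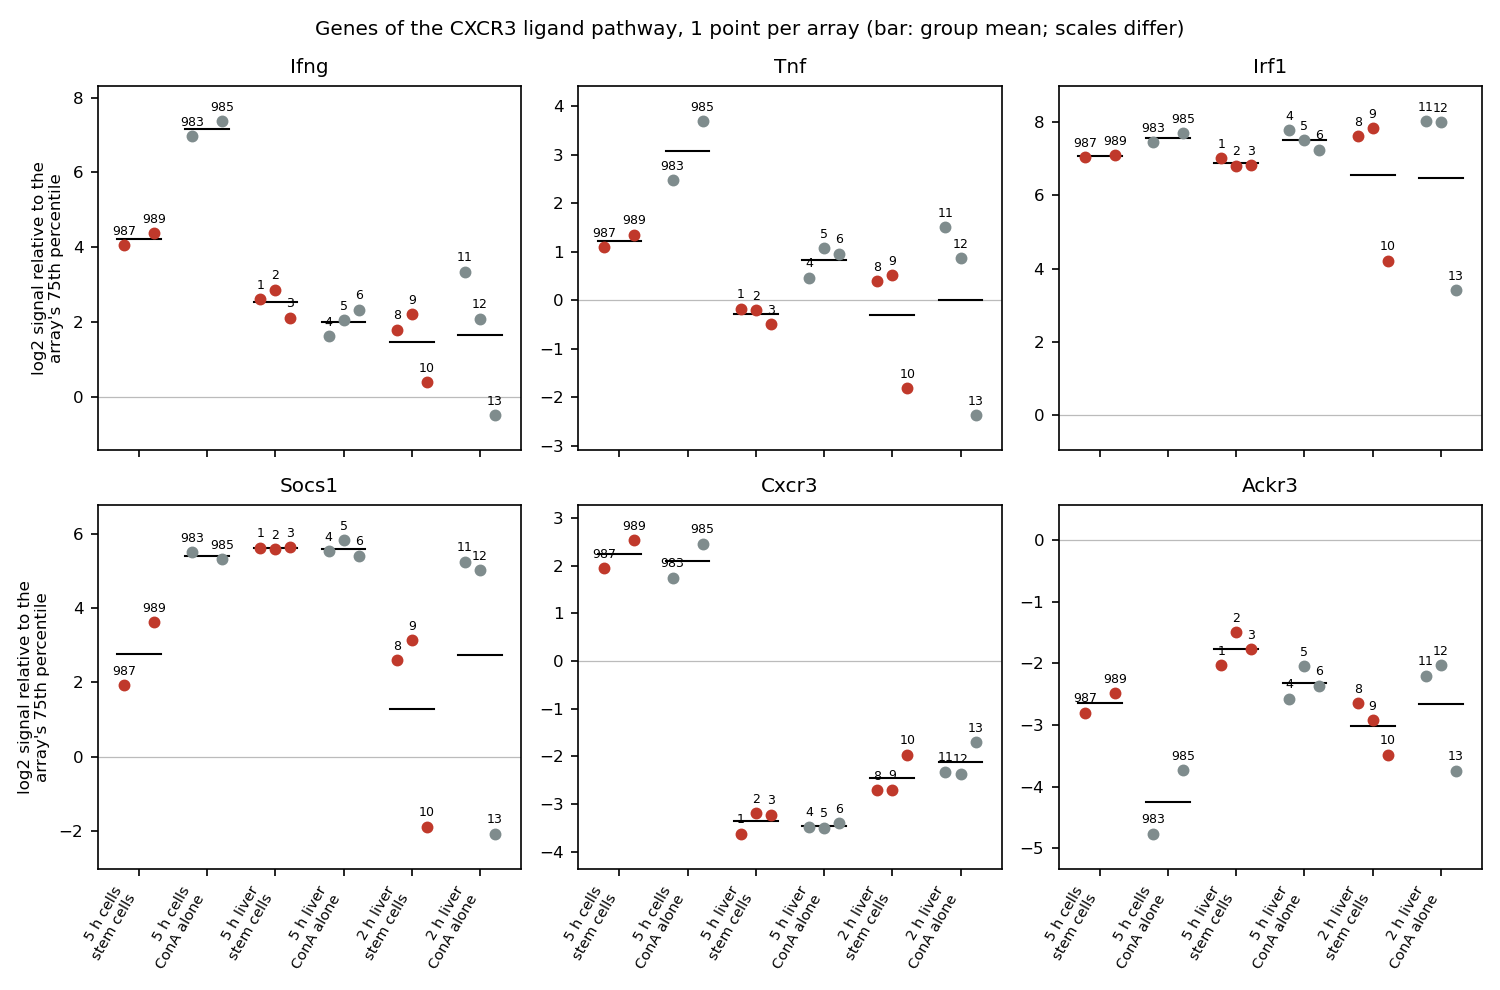
Level of 6 genes of the CXCR3 ligand pathway on each array (log2, array 75th percentile at 0, each panel on its own scale, bar at the group mean), with the probe of the fit of all 16 arrays. Ifng and Socs1 lie lower in the stem-cell-treated cells than in the untreated ones, and mice 10 and 13 lie lowest of the 2 h livers for Ifng, Irf1 and Socs1.

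By time, 1 of the 25 genes rose and 1 fell at 5 h relative to 2 h with concanavalin A alone, where 6.46% and 9.21% of all genes did: Tnfrsf1a, a TNF receptor (1.14 ± 0.13, adjusted p = 0.00194) rose and Cxcr3 (-1.33 ± 0.24, adjusted p = 0.0081) fell. With stem cells 5 rose, Jak2, a kinase of the interferon gamma receptor (1.86 ± 0.37, adjusted p = 0.00876), Jak1, Nfkb1, Tnfrsf1a and Ackr1, and Cxcr3 fell (-0.89 ± 0.24, adjusted p = 0.0302), where 8.78% and 9.79% of all genes did. For Nfkb1 2 of 4 probes went the other way. With normexp Tnfrsf1a (1.11, limma, adjusted p = 0.0777) and Cxcr3 (-0.55, 0.412) no longer passed with concanavalin A alone. Nor, with stem cells, did Ackr1 (adjusted p = 0.469), Jak1 (0.0651) and Cxcr3 (0.19). With stem cells the Jak1 call was lost without any 1 of mice 1, 2, 3, 8, 9 and 10, without the filter (limma, adjusted p = 0.0558) and with the mean of its probes (0.115). That of Nfkb1 was lost without mouse 1, 2, 3, 8 or 10 and with the mean of its probes (limma, adjusted p = 0.761). That of Cxcr3 was lost without mouse 1, 2, 3 or 10, with quantile normalization (limma, adjusted p = 0.057), without the filter (0.0547) and in the fit of all 16 arrays (0.0573). The list medians were 0.84 with stem cells and 0.38 without, beside -0.08 and -0.07 over all genes.

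Across tissues the fitted differences of the ligands and of their receptor had opposite signs. Cxcr3 was higher by 5.59 ± 0.31 in cells against liver with stem cells and by 5.57 ± 0.31 without (limma, adjusted p = 7.15e-09 and 6.37e-09). All the ligands fell with stem cells, Cxcl10 in a call lost without sample 987. Without stem cells only Cxcl9 fell, in a call that any left-out sample of these groups ended. Tissue and slide cannot be told apart here either. With stem cells 7 of 26 genes rose (Ifngr1, Jak1, Ifnar1, Il12a, Il12b, Tbx21 and Cxcr3) and 6 fell (Ifngr2, Ifnar2, Tnfrsf1a, Il18, Ackr1 and Dpp4), where 28.3% and 35.5% of all genes did. Without stem cells 8 rose, among them Ifng (5.17 ± 0.83), Tbx21, the T helper factor that drives Cxcr3 (5.41 ± 0.98), Ifngr1, Jak2, Nfkb1, Il12a, Il12b and Cxcr3, and 6 fell (Ifnar2, Tnfrsf1a, Il18, Ackr1, Ackr3 and Dpp4), where 29.3% and 31.7% of all genes did. Under 1 or more other settings the calls of Ifnar1, Ifnar2, Jak1, Il12b, Tbx21 and Dpp4 with stem cells and of Nfkb1, Il12b, Ifnar2 and Ackr3 without were lost.

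As a description with no test, the genes whose levels ran closest to each member were found by Pearson correlation over the 12 livers, where mice 10 and 13 weigh most. For Cxcl9 they were Nfkb2 (r = 0.997), Socs1, Plaur, Il1rn and Irf8 (0.994). Without mice 10 and 13 these kept r of 0.963 to 0.985. For Cxcl10 they were Rnd1 (0.995), Arg2, Saa2, Hcar2 and Clec4e (0.986), and without those mice r ran from 0.416 for Hcar2 to 0.917 for Rnd1. For Cxcl11 they were Socs1 (0.990), Acod1, Gm4951, Tlr2 and Relb (0.989), with r of 0.884 to 0.922 without those mice.

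Over all 16 arrays Cxcl11 was the gene closest to Cxcl9 (r = 0.980), followed by 1200016E24Rik, Gbp6, Il1rn and Olr1, and Cxcl9 was the closest to Cxcl11, followed by Ccl2, Olr1, Gadd45g and Ch25h. Cxcl10 ran closest to Ccl2 (r = 0.983), Gadd45g, Ccl7, Bcl3 and Cxcl11 (0.966). Among themselves the members had r of 0.954 to 0.980 over 16 arrays. These r also take in the gap between livers and cells. In the 12 livers Cxcl9 and Cxcl10 had r = 0.947, and r = 0.811 without mice 10 and 13. Among 14638 genes in the livers, Cxcl10 ranked 209th and Cxcl11 42nd in closeness to Cxcl9. Cxcl9 ranked 68th and Cxcl11 19th for Cxcl10, and Cxcl9 ranked 23rd and Cxcl10 37th for Cxcl11. Arrays of a tissue share slides, and the points are groups of samples rather than independent draws.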

How the data were processed

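Each sample's RNA was labelled with Cy3 and hybridised to 1 Agilent mouse array design. The deposited scanner files hold spot intensity on a linear scale, background-subtracted and detrended by Agilent's Feature Extraction software, as the submitters' processing notes and the headers of the deposited files state. The authors' series table holds the same intensity values on every array (largest difference 0), and 0 columns of per-sample values were left unused. Probe positions are on mm8, per the file headers.

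From these, processed signals were put on a log2 scale and each array's 75th percentile subtracted, with spots marked as outliers set to missing. Kept probes lay well above background on at least 3 of 12 liver arrays, 2 of 4 cell arrays or 2 of 16 in the joint fit. A gene was represented by its brightest kept probe, and symbols were updated by accession through RefSeq (23374 of 41174 probes). Between 52.1% and 62.5% of spots of an array were well above background, and the number of arrays limits the precision. Groups were compared with limma 3.58.1 (R 4.3.3, lmFit and eBayes, 2-sided, Benjamini-Hochberg over all genes tested, threshold 0.05): all livers in 1 fit, the cells in another, and all 16 arrays across tissues. The fits were tested on simulated arrays. The genes named are the 3 members, pathway genes past the threshold, 7 pathway genes in every case and the 5 genes closest in pattern. One gene of the pathway list is not reported here. The members, lists and settings were chosen with earlier results of these data known. Other settings are described at the end.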

Additional observations from a re-analysis of the deposited data

Results flagged for a closer look

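Cxcl10 and Cxcl11 differed with opposite sign in the 2 materials at 5 h, and neither passed in either material. For both, the 2 samples of inflammatory cells with stem cells lay below the 2 without, while the 3 livers with stem cells lay above the 3 without. Over all genes 24.9% lay lower without overlap in the cells and 12.7% higher without overlap in the liver. The fitted difference of the effect, cells minus liver, was -3.18 for Cxcl10 and -4.73 for Cxcl11. It did not pass in the fit of all 16 arrays (limma, adjusted p = 0.585 and 0.339), and passed in the fit of the 10 arrays at 5 h (adjusted p = 0.0298 and 0.00778). The cell part of each difference was -2.73 and -4.18 (limma, adjusted p = 0.146 and 0.0814) and the liver part 0.45 and 0.55 (0.943 and 0.918).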

How the results depend on the processing

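No paired analysis was possible by mouse or sample because the groups share no numbers, while livers on the same slide were compared with the slide as a block. Differences are log2, stem cells minus concanavalin A alone unless other groups are named, and the cause of each change was not tested. Of the values for the 3 chemokines under other settings, 243 kept direction and side of the threshold, 8 changed sign, 17 newly passed and 2 no longer passed. With 1 sample left out these counts were 311, 13, 6 and 6. Part of the 243 was fixed in advance, since the authors' table holds the same values as the main data. Each member has 1 probe, so the settings on a gene's probes left its differences unchanged. They could move only its spread and adjusted p.

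In 2 h livers without mice 10 and 13 the values were -1.91 for Cxcl9, -0.71 for Cxcl10, -2.07 for Cxcl11, -0.29 for Irf1 and -0.070 for Dpp4. With normexp they were -0.48 for Cxcl10, -0.40 for Irf1, 0.40 for Cxcr3, 0.40 for Ackr3 and -0.27 for Dpp4. Array weights gave -0.67 for Cxcl10 and -0.28 for Irf1, and Irf1 was -0.055 as the mean of its probes and -0.19 with every probe tested. In 5 h livers normexp gave -0.037 for Cxcl9 and -0.073 for Socs1, and quantile normalization -0.080 for Cxcl9, -0.043 for Socs1 and -0.074 for Cxcr3. In the cells normexp gave -2.89, -3.0 and -2.47 for Cxcl9, Cxcl10 and Cxcl11 and -0.11 for Cxcr3, and no filter -4.18 for Cxcl11.

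For 5 h minus 2 h with concanavalin A alone, leaving out mice 10 and 13 gave -0.21 for Cxcl10 and -0.51 for Cxcl11, and array weights -0.037 for Cxcl11. With stem cells it gave 2.69, 0.95 and 2.12 for Cxcl9, Cxcl10 and Cxcl11, and Cxcl9 was 3.03 with array weights and 4.09 in the groups compared. For cells minus liver without stem cells, Cxcl9 was -3.46 with quantile normalization and -4.11 with array weights, no longer passing, and Cxcl10 and Cxcl11 passed in the groups compared at -2.68 and -2.65. The 5 h minus 2 h difference of the effect passed without mice 10 and 13 (1.95 for Cxcl9, 2.63 for Cxcl11), and the cells minus liver one in the groups compared (-3.18 for Cxcl10, -4.73 for Cxcl11).

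With 1 sample left out at a time, the ranges for Cxcl9, Cxcl10 and Cxcl11 were -3.32 to 0.081, -2.42 to 1.75 and -3.52 to 0.17 in 2 h livers, -0.12 to 0.16, 0.33 to 0.56 and 0.42 to 0.70 in 5 h livers, and -3.48 to -2.02, -3.38 to -2.08 and -4.80 to -3.56 in the cells. They were 0.74 to 3.78, -0.21 to 3.51 and -0.51 to 2.98 for 5 h minus 2 h without stem cells, and 2.69 to 4.95, 0.95 to 3.61 and 2.12 to 4.4 with. For cells minus liver they were -4.93 to -3.47, -2.80 to -2.56 and -3.27 to -2.03 without stem cells, and -7.34 to -6.64, -6.51 to -5.20 and -7.55 to -7.22 with. Without sample 987 Cxcl10 no longer passed there (limma, adjusted p = 0.0987), and without mouse 4, 5 or 6 or sample 983 or 985 neither did Cxcl9 without stem cells (0.0564 to 0.18). The differences of the effect ran from -0.041 to 3.36, -1.30 to 2.86 and 0.38 to 4.07 by time, and from -3.52 to -2.06, -3.83 to -2.52 and -5.35 to -4.12 by material. In 2 h livers Ifng ran from -1.25 to 0.67, Irf1 -1.46 to 1.25, Tnf -1.49 to 0.46, Socs1 -3.85 to 0.14 and Dpp4 -0.056 to 0.18, Socs1 -0.064 to 0.14 in 5 h livers and Cxcr3 -0.22 to 0.49 in the cells. A cell group then held 1 sample, assumed to vary like the others.

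Over the settings, pathway genes that fell with stem cells ran from 0 to 5 in 2 h livers and 0 to 8 in the cells, and those that rose in the cells from 0 to 2. At 5 h relative to 2 h, 0 to 2 rose and 0 to 3 fell without stem cells, and 3 to 10 rose and 0 to 2 fell with. In cells against liver 7 to 11 rose and 5 to 7 fell without, and 4 to 10 rose and 4 to 11 fell with. The slide block fitted on the groups compared and the within-array measure were chosen after seeing the data. Signal over background limits Cxcl11 in the treated cells, where its spots were dim.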
